A study of Rattus norvegicus with 10 samples.

Results

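Genes whose symbol is Zfp followed by a number encode zinc finger proteins, and 176 of them were followed in the hippocampus of female Alzheimer model rats given ibudilast. The members were the Zfp-number genes with an estimated count of at least 10 in at least 5 of the 10 libraries, and 176 of 179 such genes among 17168 listed genes met that rule. Zfp352 had no count in any library, Zfp93 reached 10 counts in 2 libraries and Zfp978 in 4. Just inside the rule, Zfp7 reached 10 counts in 5 libraries and Zfp474 in 7. The name is a naming series rather than one protein family. Most members carry C2H2 zinc fingers, but a few, such as Zfp36 and its relatives, carry CCCH fingers.

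Left hippocampi of 10 TgF344-AD rats, all female, were sequenced for RNA, 5 of them from rats fed ibudilast in the chow (ibudilast 1 to 5) and 5 from rats fed rodent chow without it (untreated 1 to 5). Treatment began at 5 months of age and ran for 6 months, and the perfused brains were taken at 11 months. TgF344-AD rats carry mutant human transgenes for the amyloid precursor protein and presenilin, driven by a mouse prion promoter, and both groups carry them. No rats without the transgenes were analysed here. Ibudilast inhibits several phosphodiesterases, enzymes that break down cyclic nucleotides such as cAMP.

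A C2H2 zinc finger is a short fold held by a zinc ion, and arrays of such fingers read DNA sequence or bind RNA. Many members also carry a KRAB domain, which recruits the co-repressor TRIM28, the histone methyltransferase SETDB1 and HP1 proteins to silence chromatin, mainly at transposable elements. The Zfp36 group instead binds AU-rich elements in messenger RNA and brings in the CCR4-NOT deadenylase complex, so that the transcript decays. In the brain, members act in neuronal differentiation and migration, in imprinting and in transport of mRNA to dendrites.

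cAMP acts on transcription partly through the factor CREB, whose full site is TGACGTCA. The RefSeq promoter table (GRCr8 build) held an entry for 144 of the 176 members, and the 250 bases upstream of the start were searched on both strands. The full site was present in 4 of 144 members (2.78%), against 3.02% of 8766 tested genes with an entry and 1.70% of all 27457 promoters. The fragments with that site are printed 5′ to 3′ on the gene's strand, with the site in capitals, because they are the only members whose promoter window held it.
Zfp458 (chr2:86401398-86401485, plus strand): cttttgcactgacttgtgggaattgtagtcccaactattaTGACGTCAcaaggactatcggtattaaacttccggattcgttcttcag
Zfp266 (chr8:27337540-27337613, minus strand): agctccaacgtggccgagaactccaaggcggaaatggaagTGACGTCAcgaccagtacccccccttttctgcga
Zfp426 (chr8:27305058-27305144, minus strand): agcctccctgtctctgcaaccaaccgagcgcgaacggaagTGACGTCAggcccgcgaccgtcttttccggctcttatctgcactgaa
Zfp593 (chr5:151748736-151748823, minus strand): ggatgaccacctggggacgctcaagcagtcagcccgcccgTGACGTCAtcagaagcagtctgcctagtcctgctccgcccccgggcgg
The site began 76 bases before the start in Zfp458, 34 in Zfp266, 47 in Zfp426 and 59 in Zfp593.

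Zfp458 and Zfp266 passed the test as higher with ibudilast, with log2 fold changes of 0.51 ± 0.17 and 0.39 ± 0.13 (SE; edgeR adjusted p = 0.0386 and 0.0374). Zfp458 kept its call only without untreated 5 or without ibudilast 1, and Zfp266 only without untreated 4, untreated 5 or ibudilast 1. Zfp426 and Zfp593 had log2 fold changes of 0.09 and -0.08 and did not pass. The shorter letters TGACG, which also occur inside the full site, were in 25% of the members' windows and 28.3% of those of tested genes. The GC box GGGCGG was in 44.4% of the members' windows against 59.1%, the E-box CACGTG in 5.56% against 8.09%, and the CCAAT box in 37.5% against 35%. TATAAA was in 8.33% against 6.24%. The median number of CpG dinucleotides per window was 13 for members and 16 for tested genes. A match is a run of letters and not a site shown to be bound.

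The libraries differed in more than treatment. Untreated libraries held 6960066 to 8204390 estimated counts and ibudilast libraries 7553804 to 10121571. Cerebellar markers (14 of 15 in the table) summed to 4388 CPM in ibudilast 3 and to 61.0 to 163 CPM in the others, where CPM is the count scaled to library size with TMM factors. Of these 15 markers 7 were tested, and 3 rose and none fell. Meningeal markers (all 18 in the table) reached 1613 CPM in ibudilast 5 and 1433 CPM in ibudilast 3, with 69.4 to 251 CPM in the other 8 libraries. Choroid plexus markers (all 12 in the table) reached 2655 CPM in untreated 1 and at most 135 CPM elsewhere. Of 20 hippocampal principal cell markers 18 were in the table and none was at 0 in every library, as was also true of the markers of the other regions. Their sum was 4441 to 6910 CPM without ibudilast and 1964 to 4021 CPM with it, so the groups did not overlap, and 1 of 15 tested rose and 5 fell. Of 15 neocortical markers tested 6 rose and 2 fell, and their sum was 796 to 1314 and 1129 to 1357 CPM. Of 14 microglial markers 13 fell, and their sum was 893 to 1551 and 407 to 782 CPM. Of 10 astrocyte markers 5 fell and none rose, and their sum, 4701 to 6942 against 3031 to 4413 CPM, did not overlap between groups either. Of 8 endothelial markers tested 3 fell and none rose, and of 10 oligodendrocyte markers none passed. By the same test (edgeR, adjusted p under 0.05) 20.0% of all tested genes rose and 18.5% fell. The part of these differences in the results on Zfp genes was not tested beyond the fits named beside them. In tissue RNA, fewer cells of a type and less RNA per cell cannot be told apart.

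More Zfp genes passed as higher than as lower with ibudilast, and most did not pass. Of the 176 members, 52 (29.5%) were higher and 5 (2.84%) lower (edgeR, adjusted p under 0.05 over all genes tested), and 119 did not pass. Among all 11682 genes tested, 20.0% were higher and 18.5% lower. All 176 members were tested, and 172 of them had at least 10 counts in every library. The median log2 fold change of the members was 0.21 (quartiles 0.01 and 0.46), against 0.01 for all tested genes, and it was positive in 134 members (76.1%) against 50.5% of all tested genes.

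The rises were mostly modest. Among the 52, the log2 fold change ran from 0.26 to 1.84 with a median of 0.53. It was under 0.5 in 22 genes, between 0.5 and 1 in 23, and at least 1, a 2-fold change, in 7. The 5 falls ran from -0.27 to -1.21. Every ibudilast library stood above every untreated library for 37 members (21.0%), against 12.3% of all tested genes, and every one stood below for 3 members (1.70%), against 11.8%. Of the called genes, 35 of 52 rises and 3 of 5 falls had groups that did not overlap.

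**Figure D1:**
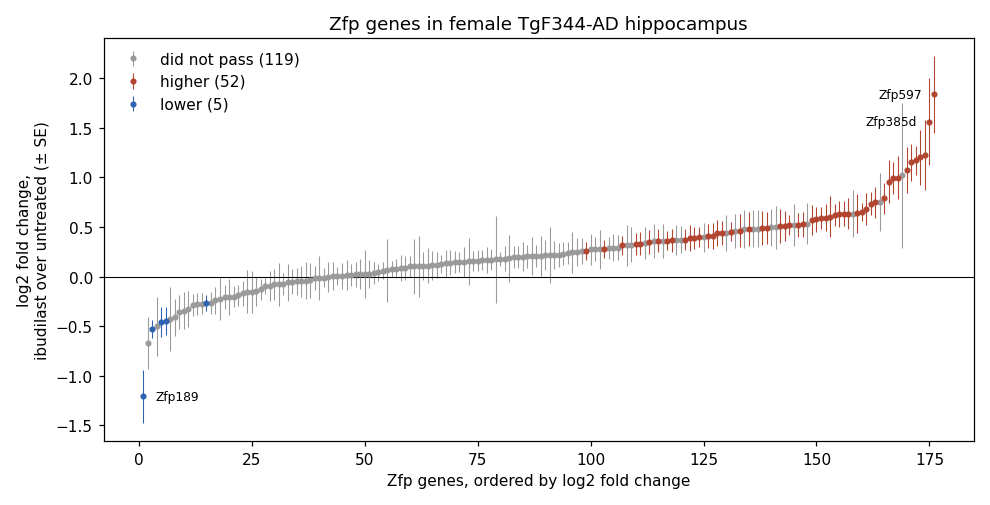
Log2 fold change of ibudilast over untreated (vertical axis, bars are SE) for the 176 Zfp genes in order of size, with genes that passed the edgeR test as higher in red and as lower in blue. The 52 higher genes reach 1.84 at Zfp597, the 5 lower ones reach -1.21 at Zfp189, and 134 of 176 values are above 0.

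The shift was seen across the libraries of both groups. Relative to each gene's mean over the 10 libraries, the median member stood at -0.11, -0.10, -0.21, -0.05 and -0.04 (log2) in untreated 1 to 5. It stood at 0.00, 0.10, 0.25, 0.14 and 0.05 in ibudilast 1 to 5. All untreated medians were thus below all ibudilast medians, with untreated 3 lowest and ibudilast 3 highest. The median over all tested genes stayed between -0.01 and 0.01. Summed over members, the level was 5128 ± 268 CPM without and 5954 ± 385 CPM with ibudilast (SD, n = 5 each). Ibudilast 3, the library with cerebellar markers, had the highest level of its group for 85 of 176 members, and ibudilast 5 for 7. The same count was not made over all tested genes, so it does not set the members apart from them. Without ibudilast 3, 45 members were higher and 7 lower, with a median of 0.18, while 22.0% and 18.6% of all tested genes were called. Fewer members and more of all genes were then higher than with the 10 libraries. Without ibudilast 3, ibudilast 5 and untreated 1 together, 28 of 176 were higher and 3 lower, with a median of 0.17. Of all tested genes 15% were then higher and 11.6% lower, with a median of -0.02. The members' share of rises was thus close to that of all genes. Their share of falls stayed below that of all genes, and their median stayed above.

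**Figure D2:**
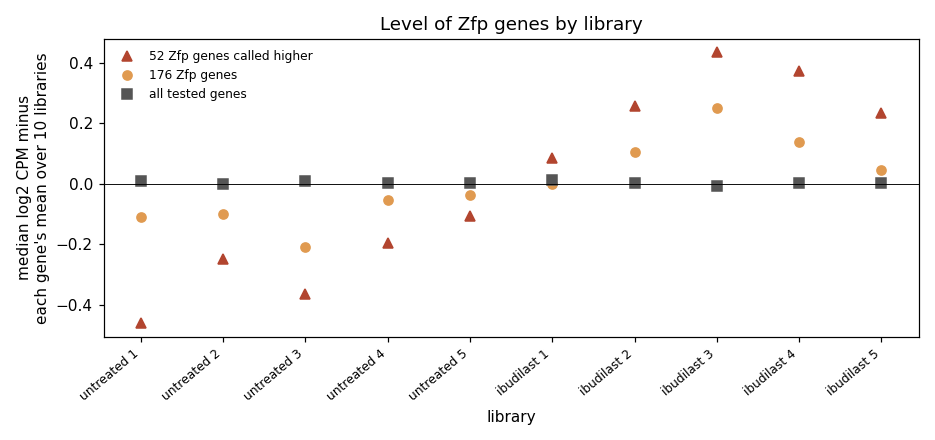
Median level of Zfp genes in each library (vertical axis, log2 CPM minus each gene's mean over the 10 libraries) for the 52 genes called higher (triangles), all 176 members (circles) and all tested genes (squares). The 176 members sit between -0.21 and -0.04 in untreated and between 0.00 and 0.25 in ibudilast libraries, while all tested genes stay near 0; the 52 genes were chosen for this contrast.

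The calls also depended on how region markers were treated. With a neocortical marker score as a covariate 34 members were higher and 2 lower, with a median of 0.28, and 12.9% and 8.92% of all tested genes were called. Only 23 of the 52 rises and 1 of the 5 falls of the main fit kept their call there. With a hippocampal principal cell marker score 28 of 176 were higher and 4 lower, with a median of 0.16, and 13.3% and 12.4% of all tested genes were called. In that fit 27 of the 52 rises and 3 of the 5 falls kept their call. The members' share of rises with the hippocampal score was nearer to that of all genes than without a covariate. The neocortical score was -0.52 to -0.13 in untreated and -0.30 to 0.64 in ibudilast libraries, and the hippocampal score -0.13 to 0.74 and -0.57 to 0.31, so region and drug cannot be fully told apart. Dropping 1 library at a time, the number higher was between 33 (without untreated 3) and 60 (without untreated 5). In those fits 16.1% and 21.4% of all tested genes were higher. The number lower was between 3 (without untreated 4, untreated 5, ibudilast 2 or ibudilast 4) and 7 (without ibudilast 1 or ibudilast 3). Of all tested genes 14.1% to 16.4% were lower in the former fits and 18.6% to 19.4% in the latter. In all 10 such fits 31 of the 52 rises and 2 of the 5 falls kept their call, and the median was positive in each.

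Zfp597 had the largest rise. It stood at 1.47, 2.56, 2.87, 5.65 and 9.12 CPM in untreated 1 to 5 and at 12, 16.6, 14.4, 16.7 and 17.8 CPM in ibudilast 1 to 5. The groups did not overlap, and untreated 5 was the highest of its group. The log2 fold change was 1.84 ± 0.39 (SE; edgeR adjusted p = 0.00443), and between 1.62 and 2.33 with any 1 library left out. The human relative of Zfp597 is an imprinted gene.

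Zfp507 and Zfp516 differed with small spread. Zfp507 stood at 9.24, 11.2, 10.4, 13.0 and 14.2 CPM in untreated 1 to 5 and at 20.0, 26.8, 29.5, 28.3 and 26.2 CPM in ibudilast 1 to 5. Every ibudilast value was above every untreated value, with a log2 fold change of 1.17 ± 0.15 (edgeR adjusted p = 0.000846). Zfp516, known as an activator of genes of brown fat, stood at 3.81, 3.90, 3.97, 4.97 and 6.77 CPM against 8.55 to 11.8 CPM, with a log2 fold change of 1.15 ± 0.19. Its groups did not overlap either, and untreated 5 was again the highest of the untreated libraries.

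Zfp385d and Zfp395 were higher in every ibudilast library than in any untreated one, and ibudilast 3 stood far above the rest. Zfp385d, a relative of the RNA-binding Zfp385a, stood at 2.93, 1.83, 3.83, 3.76 and 5.80 CPM in untreated 1 to 5 and at 6.00, 7.41, 24.5, 7.98 and 7.39 CPM in ibudilast 1 to 5. Its log2 fold change was 1.56 ± 0.44 (edgeR adjusted p = 0.0168), and 1.00 (edgeR adjusted p = 0.0149) without ibudilast 3. Zfp395, whose human relative binds the promoter of the huntingtin gene, stood at 8.29 to 13.2 CPM in untreated libraries and at 16.6, 19.0, 52.9, 13.4 and 20.0 CPM in ibudilast 1 to 5. The groups came close without overlapping, at 13.2 and 13.4 CPM. Its log2 fold change was 1.23 ± 0.35, and 0.73 (edgeR adjusted p = 0.00641) without ibudilast 3. Neither gene passed in the fit with hippocampal markers (edgeR adjusted p = 0.165 and 0.158), and Zfp385d did not pass without the 3 libraries named above (edgeR adjusted p = 0.0676) or with the trend of change with gene span removed (edgeR adjusted p = 0.0597).

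Among the other large rises, 7 genes had groups that did not overlap and kept their call with any 1 library left out. Zfp697 went from 1.91 to 4.30 CPM over the untreated libraries to 4.79 to 9.74 CPM over the ibudilast libraries, a 2.30-fold rise. Zfp483, at 16.9, 33.8, 24.2, 35.6 and 44.5 CPM in untreated 1 to 5, stood at 55.9, 70.1, 50.8, 80.5 and 69.6 CPM in ibudilast 1 to 5 (log2 fold change 1.08). In both genes untreated 1 was the lowest library. Zfp319 and Zfp949 had log2 fold changes of 1.00 and 0.96. Zfp703, a transcriptional repressor of the NET family first studied in development and breast cancer, went from 22.2 to 30.5 CPM to 34.7 to 62.5 CPM (log2 fold change 1.00 ± 0.16, edgeR adjusted p = 0.00161). Zfp281, which binds GC-rich promoters in stem cells, had a log2 fold change of 0.79. Zfp398, with 0.75, belongs to the chromosomal run described further on. Zfp697, Zfp483, Zfp949 and Zfp281 did not pass with the neocortical marker score as a covariate, under which fewer genes were called at all.

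**Figure D3:**
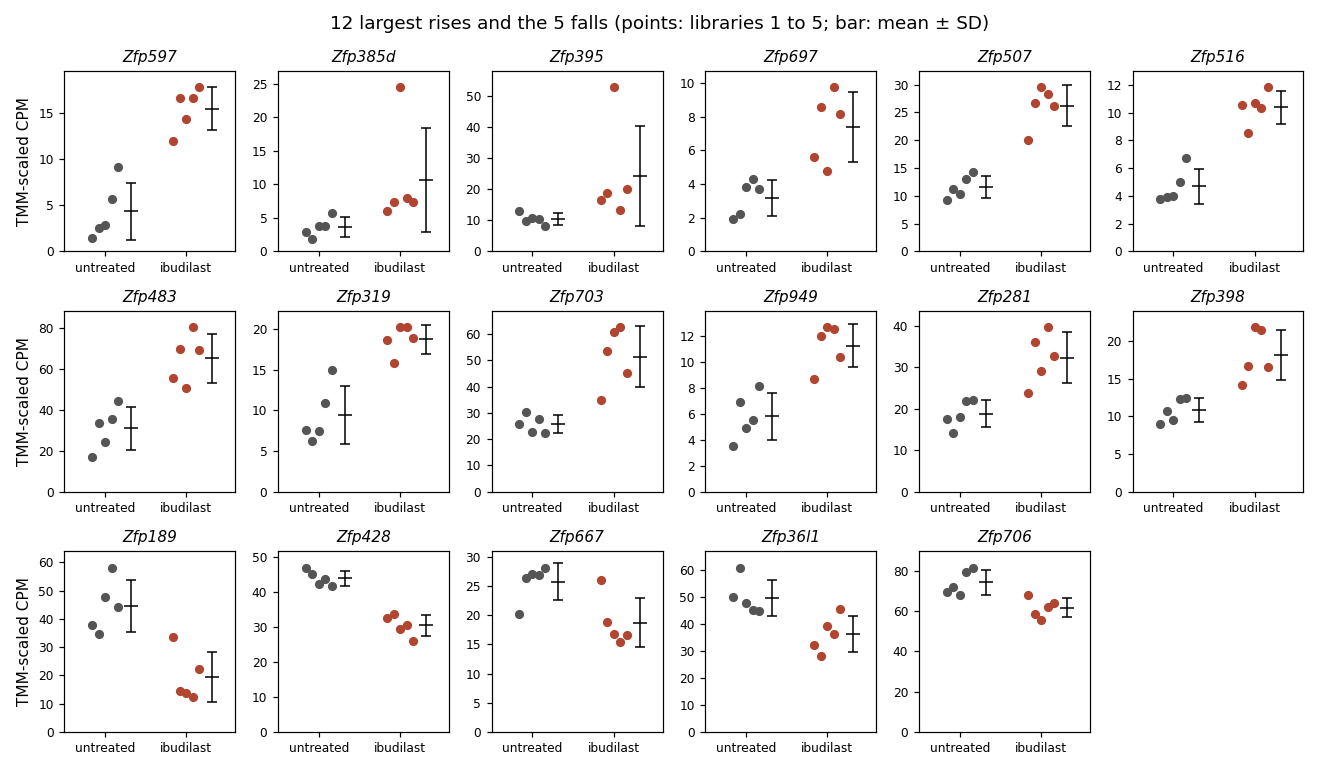
CPM in each library (points, libraries 1 to 5 from left to right within a group) with the mean and SD for the 12 Zfp genes with the largest rises and the 5 that fell; each panel has its own vertical axis from 0. Groups do not overlap in the 12 rises, in Zfp189, in Zfp428 or in Zfp706, and ibudilast 3 stands far above its group in Zfp385d and Zfp395.

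The 5 falls were led by Zfp189, a KRAB zinc finger gene that is a target of CREB and has been studied in prefrontal cortex under stress. Zfp189 stood at 38.0, 34.8, 47.8, 58.2 and 44.2 CPM in untreated 1 to 5 and at 33.7, 14.6, 13.8, 12.3 and 22.2 CPM in ibudilast 1 to 5. The groups did not overlap, but ibudilast 1 was close to untreated 2. The log2 fold change was -1.21 ± 0.27 (SE; edgeR adjusted p = 0.00561), and -1.50 to -1.08 with any 1 library left out. With the neocortical marker score as a covariate it was -0.92 and did not pass (edgeR adjusted p = 0.142). The RefSeq table gave no promoter entry for Zfp189.

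Zfp428 was the other fall that kept its call with any 1 library left out. Its untreated libraries held 41.9 to 47.1 CPM and its ibudilast libraries 26.0 to 33.8 CPM, a log2 fold change of -0.53 ± 0.09 (edgeR adjusted p = 0.00173). Zfp667, known as a KRAB protein induced by ischaemia, fell by 0.46 on the log2 scale (edgeR adjusted p = 0.0354), with groups that overlapped through untreated 1 at 20.2 CPM and ibudilast 1 at 26.0 CPM. It kept its call only without untreated 1 or without ibudilast 1. Zfp706 fell by 0.27 (edgeR adjusted p = 0.0270), from 68.3 to 81.8 CPM to 55.8 to 67.9 CPM. It lost its call without untreated 4, untreated 5, ibudilast 2, ibudilast 3 or ibudilast 4. Without the 3 libraries and with either marker score, neither Zfp667 nor Zfp706 passed, and Zfp706 did not pass with the span trend removed (edgeR adjusted p = 0.206).

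Of 9 tested members listed as binding RNA or acting on ribosomes, 1 rose and 1 fell (11.1% each), against 20.0% and 18.5% of all tested genes. The list did not hold Zfp385d, which rose as described above. Zfp36l1, which directs AU-rich mRNAs to decay, stood at 44.5 to 60.7 CPM in untreated libraries, highest in untreated 2, and at 32.1, 28.1, 39.2, 36.3 and 45.5 CPM in ibudilast 1 to 5. The groups overlapped at ibudilast 5, and the log2 fold change was -0.45 ± 0.14 (edgeR adjusted p = 0.0265). It lost its call without untreated 1, untreated 2, ibudilast 1 or ibudilast 2, and with the neocortical marker score or the span trend removed. Zfp36, which encodes tristetraprolin, had a log2 fold change of 0.06 ± 0.32 (edgeR adjusted p = 0.892), with ibudilast 1 lowest at 6.92 CPM and ibudilast 5 highest at 32.9 CPM. Its sign changed under several other settings. Zfp36l2, the remaining relative, had -0.27 (edgeR adjusted p = 0.0800). Zfp36l1 and Zfp36l2 each had estimated counts that were not whole in 2 libraries, as RSEM gives where reads map to more than 1 gene.

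Zfp385a, which helps to localise mRNA in dendrites, was the member of that list that rose. It stood at 112, 113, 103, 82.7 and 108 CPM in untreated 1 to 5 and at 122, 150, 197, 147 and 166 CPM in ibudilast 1 to 5. The groups did not overlap, and the log2 fold change was 0.59 ± 0.14 (edgeR adjusted p = 0.00638). Its relative Zfp385b had 0.21 and did not pass, and 0.00035 without ibudilast 3, where it stood at 106 CPM. Zfp598, the ligase that marks collided ribosomes, had 0.48 (edgeR adjusted p = 0.0673) with 86.4 CPM in ibudilast 3, and 0.25 without that library. Zfp598 passed with the neocortical marker score (0.97, edgeR adjusted p = 0.00559), with the span trend removed (0.54, edgeR adjusted p = 0.0396), without ibudilast 4 (0.58, edgeR adjusted p = 0.0315) and with DESeq2 (adjusted p = 0.04996). Zfp622 and Zfp593, both factors of large ribosomal subunit assembly, had -0.27 (edgeR adjusted p = 0.0541) and -0.08. Zfp622 passed with upper quartile factors, with DESeq2, and without untreated 2 or ibudilast 2, at -0.32 to -0.27. Zfp346, a binder of double-stranded RNA, had groups that did not overlap but a log2 fold change of 0.18 that missed the threshold (edgeR adjusted p = 0.0785). It passed with counts thinned to the smallest total (0.21) and without untreated 5 (0.23).

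Of 2 tested members listed for known KRAB roles, Zfp57 rose and Zfp382 did not pass. Zfp57, which keeps DNA methylation at imprinted regions, stood at 13.1, 9.88, 11.5, 12.9 and 20.4 CPM in untreated 1 to 5 and at 18.1 to 19.5 CPM in ibudilast libraries. Untreated 5 was thus above every treated library. The log2 fold change was 0.48 ± 0.17 (edgeR adjusted p = 0.0469), the call held in only 1 of the 10 fits with a library left out (without untreated 5), and its estimated counts were not whole in any library. Zfp445, which shares that imprinting role, rose by 0.31 ± 0.09 (edgeR adjusted p = 0.0228), and lost its call without untreated 1, untreated 2, untreated 3 or ibudilast 4. Its value was seen before it was named. Zfp382, a KRAB repressor, had 0.27 (edgeR adjusted p = 0.0903). Zfp189 and Zfp667, described above among the falls, also carry a KRAB domain.

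Of 7 members with known roles in neurons or glia, 2 (28.6%) rose and 1 (14.3%), Zfp189, fell, against 20.0% and 18.5% of all tested genes. Zfp292, a large transcription factor whose human relative is mutated in neurodevelopmental disorders, had 33.1 to 43.4 CPM without ibudilast and 48.6 to 66.9 CPM with it, a log2 fold change of 0.62 ± 0.11 (edgeR adjusted p = 0.00222). Zfp609, a regulator of neuronal migration, rose by 0.36 ± 0.10 (edgeR adjusted p = 0.0152), from 63.1 to 86.3 CPM to 89.7 to 101 CPM. Both had groups that did not overlap and kept their call with any 1 library left out. Zfp609 did not pass without the 3 libraries named above (log2 fold change 0.27, edgeR adjusted p = 0.118), nor with the trend of change with gene span removed (0.06, edgeR adjusted p = 0.608).

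Several neural members followed single libraries. Zfp521, a transcription factor of neural precursors, stood at 105 CPM in ibudilast 3 and at 5.53 to 18.6 CPM in the others. Over the 10 libraries the log2 fold change was 1.02, against -0.48 without ibudilast 3, and it passed in neither fit. With the neocortical marker score it was 2.22 and passed (edgeR adjusted p = 0.0106). Zfp365, which encodes a DISC1-binding protein of interneurons and oligodendrocytes, stood at 105 to 160 CPM in untreated libraries and at 219, 300, 90.0, 374 and 260 CPM in ibudilast 1 to 5. All ibudilast libraries other than ibudilast 3 were above all untreated ones. The log2 fold change was 0.75 (edgeR adjusted p = 0.0628) over the 10 libraries, 0.97 (edgeR adjusted p = 0.00171) without ibudilast 3, past the threshold with DESeq2 (adjusted p = 0.0324), and -0.36 with the neocortical marker score as a covariate (edgeR adjusted p = 0.332). Zfp423, the relative of Zfp521 that acts in cerebellar precursors, had -0.43 ± 0.32, and Zfp503, a striatal factor of the same family as Zfp703, had -0.33 ± 0.19, and neither passed.

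Of 9 members with general roles in transcription, protein modification or cell division, 2 (22.2%) rose and none fell, against 20.0% and 18.5% of all tested genes. Zfp451, a SUMO ligase, went from 17.3 to 21.8 CPM to 23.9 to 32.3 CPM with no overlap, a log2 fold change of 0.59 ± 0.11 (edgeR adjusted p = 0.00282). The other gene was Zfp281, described above. The GC-box factor Zfp148 had 0.23, the transcription factors Zfp384 and Zfp260 had 0.22 and 0.12, and the ubiquitin ligase gene Zfp91 had 0.08. Zfp410, which activates the chromatin remodeller gene Chd4, had 0.06, the spindle factor Zfp207 had 0.04 and the promoter-binding activator Zfp143 had 0.01. None of these 7 passed in the fit over the 10 libraries, and their groups overlapped. In other fits Zfp384 passed with the neocortical marker score (0.58, edgeR adjusted p = 0.0286), and Zfp148 passed without ibudilast 3 (0.30, edgeR adjusted p = 0.0371) and with the animal tag range as a covariate (edgeR adjusted p = 0.0452).

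KRAB zinc finger genes often lie in clusters, so the gene order of the RefSeq table was used to find members with at most 2 other protein-coding genes between neighbours. There were 68 members in 22 such runs, of which 17 (25%) rose and 1 fell, against 35 (32.4%) and 4 of the 108 other members. The median log2 fold change was 0.21 in both sets. Over all tested genes, 20.0% rose and 18.5% fell. The longest run held Zfp786, Zfp398, Zfp282, Zfp956, Zfp777, Zfp746 and Zfp467. All 7 values were positive, from 0.10 to 0.75 with a median of 0.53, and 5 genes rose.

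Within that run the genes differed in how firm the call was. Zfp956 stood at 6.89, 7.32, 7.80, 7.93 and 8.57 CPM in untreated 1 to 5 and at 11.1, 13.4, 13.5, 12.8 and 13.2 CPM in ibudilast 1 to 5, with a log2 fold change of 0.73 ± 0.12 (edgeR adjusted p = 0.0014). Zfp956, Zfp398 and Zfp282 had no overlap between groups and kept their call with any 1 library left out. Zfp786 (0.61) kept it only without untreated 4, untreated 5 or ibudilast 1, and Zfp777 (0.26) lost it without any 1 of untreated 1 to 4 or ibudilast 2 to 4. Zfp746 and Zfp467 had 0.16 and 0.10 and did not pass. Zfp398, Zfp956 and Zfp746 had estimated counts that were not whole in 6 libraries each. In another run of 5 genes, Zfp180, Zfp112, Zfp111, Zfp61 and Zfp94, all 5 values were positive and none passed. Both runs were picked after their values were seen.

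The partner genes of these proteins moved in both directions. Of 24 tested co-repressor genes that act with KRAB proteins, 4 rose (16.7%), 3 fell (12.5%) and the median log2 fold change was 0.06, against 20.0%, 18.5% and 0.01 over all tested genes. Trim28 stood at 160 ± 6.60 and 163 ± 12.1 CPM (SD, n = 5 each; log2 fold change 0.03, edgeR adjusted p = 0.784), and Setdb1 had 0.17 (edgeR adjusted p = 0.253). The DNA methyltransferase genes Dnmt3a and Dnmt1 rose by 1.14 ± 0.19 and 0.55 ± 0.13, and the histone methyltransferase gene Ehmt1 by 0.47 ± 0.13. The HP1 genes Cbx3 and Cbx5 fell by 0.39 and 0.44, and the deacetylase gene Hdac2 by 0.39.

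On the side of mRNA decay, 7 of 19 tested factors rose (36.8%) and 2 fell (10.5%), with a median of 0.27, against the same background. The decapping genes Dcp2 and Dcp1a rose by 1.80 ± 0.22 and 1.23 ± 0.19, and Cnot1, the scaffold of CCR4-NOT, by 0.70 ± 0.12. The poly(A)-binding protein gene Pabpc1 fell by 0.33 and the deadenylase gene Cnot8 by 0.24. Of 7 tested transcripts with AU-rich elements, Fos rose by 1.95 ± 0.53 with overlapping groups, Myc fell by 1.07 ± 0.16 without overlap, and 5 did not pass.

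The members' rises were spread over all levels, while the changes of tested genes were ordered by gene length. Split by mean CPM into 3 classes, the low class of 59 genes had 16 rises and no fall, the middle class of 58 had 19 and 1, and the high class of 59 had 17 and 4. Over all tested genes, of any level, 20.0% rose and 18.5% fell. CPM is not divided by gene length here. Genomic span, the distance from start to end with introns, was taken from the RefSeq table and had a median of 18.6 kb in members and 24.4 kb in all tested genes. Over all other genes the median log2 fold change went from -0.25 in the shortest of 5 span classes to 0.32 in the longest.

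Zfp genes stood above other genes of like span in 4 of the 5 classes. From the shortest to the longest class, the members' median was 0.02, 0.18, 0.26, 0.37 and 0.23, with 30, 51, 57, 19 and 19 members. The other tested genes had -0.25, -0.10, -0.0037, 0.14 and 0.32, so the order was turned in the longest class. In the shortest class 16.7% of members rose and 3.33% fell, against 6.19% and 35.1% of other genes. In the middle class 29.8% rose and 1.75% fell, against 16.8% and 16.2%. The 2 longest classes hold under 20 members each, and 57.9% and 42.1% of them rose and none fell. Of other genes in those classes 27.8% and 37.3% rose and 11.7% and 8.75% fell, so the shares of rises were close in the longest. With the span trend removed from each library, 44 members were higher and 6 lower, against 15.9% and 18.5% of all tested genes, with medians of 0.21 and -0.03. Of the 52 rises and 5 falls of the main fit, 35 and 3 kept their call. Zfp609 and Zfp532, with 0.36 and 0.37 before, then had 0.06 and 0.07, and Zfp638 went from 0.28 to -0.0065, the only 1 of the 57 called genes to change sign.

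**Figure D4:**
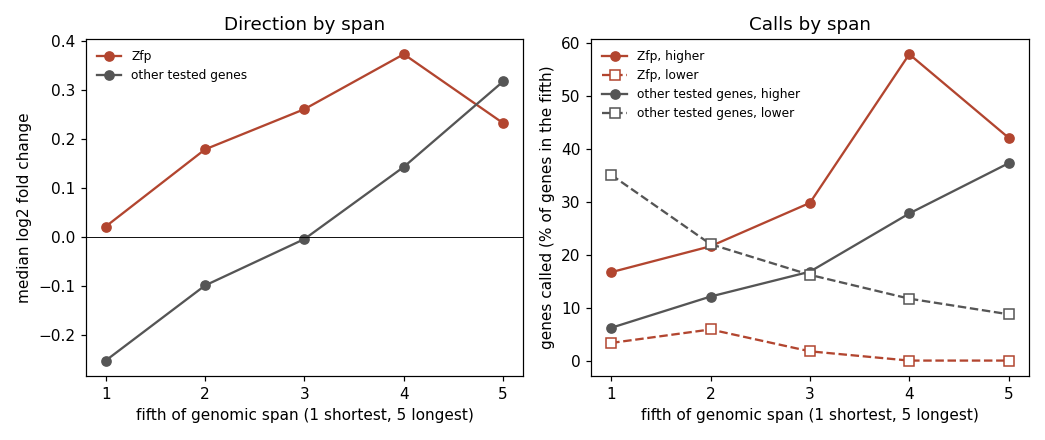
Median log2 fold change (left) and percent of genes called higher or lower (right) for Zfp genes and for the other tested genes in 5 classes of genomic span, from shortest to longest. The Zfp median is above that of other genes in the first 4 classes and below it in the longest, where there are 19 Zfp genes.

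Other gene families named for zinc-binding folds gave varied counts, beside 20.0% of all tested genes that rose and 18.5% that fell. Of 33 tested Zbtb genes, which pair C2H2 fingers with a BTB domain, 15 rose, 1 fell and the median log2 fold change was 0.43. Zfp161, Zfp238 and Zfp295, named Zbtb14, Zbtb18 and Zbtb21 in RefSeq, were counted among the Zfp genes instead. Of 14 Klf genes, C2H2 factors that bind GC-rich sites, 7 rose and 2 fell. Of 9 Zfyve genes, whose FYVE finger binds a membrane lipid, 6 rose and none fell. Of 21 Zdhhc genes, which encode palmitoyl transferases, 7 rose and 4 fell. Of 16 Zc3h genes with CCCH fingers, 4 rose and 2 fell. Of 10 Zcchc genes 1 rose and 2 fell, and of 6 Zfand genes none rose and 4 fell. These differences between families were not tested.

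**Figure D5:**
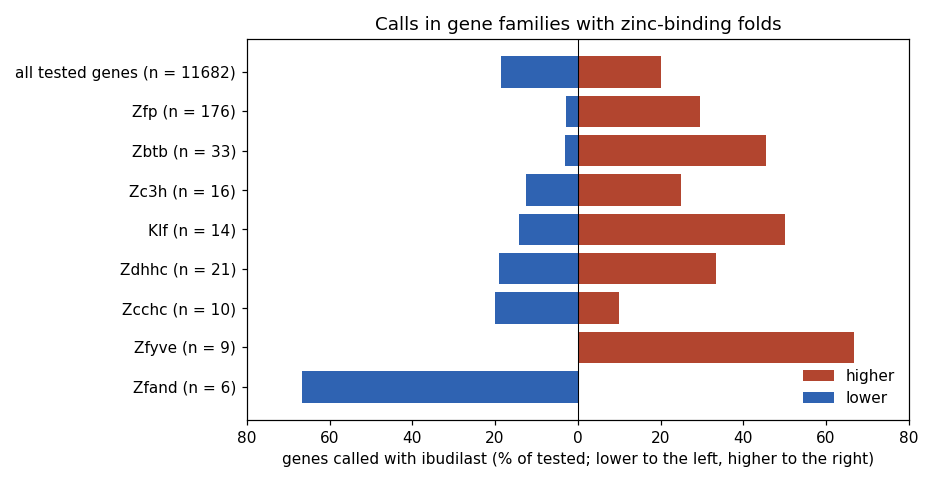
Percent of tested genes called higher (red, to the right) and lower (blue, to the left) with ibudilast in families with zinc-binding folds, with the number tested beside each name. Zfp genes have 29.5% higher and 2.84% lower, Zbtb genes 45.5% and 3.03%, and Zfand genes 66.7% lower, against 20.0% and 18.5% of all tested genes.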

How the data were processed

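Left hippocampi of 10 female TgF344-AD rats, 5 of each group, were sequenced. The treatment labels gave the groups and the titles gave the replicate numbers. The number that ends each title was taken to be an animal tag. The authors deposited expected counts for each gene, which are estimates and need not be whole. The submitters' processing notes name RSEM 1.2.15, Bowtie2 2.1.0, bcl2fastq 2.17 and the genome build rn6. A second deposited table has a signal per gene, CPM with TMM scaling, and those notes also list edgeR. CPM recomputed from the rounded counts matched 99.9% of its values within 0.1%. The libraries were strand-specific, per the labels' protocols. The sources used here do not give the annotation or the strand setting of the counting, so genes that overlap or resemble others are uncertain. Per library 10.6% to 11.3% of expected counts were not whole, and all were rounded.

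The main test was the quasi-likelihood test of edgeR 4.0.16 (R 4.3.3), with filterByExpr, TMM factors and adjustment by Benjamini-Hochberg over 11682 genes. Each SE is the absolute log2 fold change divided by the square root of that test's F statistic. It is therefore not a measure of spread separate from the p-value. Total counts were 6960066 to 10121571. The script was tested on simulated data. Alternatives used DESeq2 1.42.0, limma-voom and limma-trend (limma 3.58.1; log2 of deposited CPM plus 1), other scaling and filters, unrounded or thinned counts, a replicate block, marker scores as covariates, a loess offset for span and libraries left out. A covariate for the range of the animal tag was chosen after seeing the data.

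The members and lists were chosen with earlier results of these data known. Named genes were the 12 called members that moved most each way (mean of at least 1 CPM), the members of a list of known roles, and up to 3 called genes per partner list and direction. Zfp445, Zfp458, Zfp266, Zfp426, Zfp532, Zfp638, and the genes of chromosomal runs were named after their values were seen. Sequences, gene order and span come from RefSeq (GRCr8), where 8 members matched by an older symbol. As the counts use rn6, span is approximate.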

Additional observations from a re-analysis of the deposited data

Results flagged for a closer look

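In 10 of 82 groups examined, over 41 named Zfp genes, 1 library stood so far from the other 4 that its gap to the nearest took more than 0.71 of the group's range. For independent values from a normal distribution, chance gives about 1 such group in 20. That rate need not hold here, because CPM was not transformed, the genes share libraries and some genes were named for their large changes. Of the 10, 7 lay in ibudilast 3, 2 in untreated 1 and 1 in untreated 3.

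In ibudilast 3, Zfp385d stood at 24.5 CPM (6.00 to 7.98 in the other ibudilast libraries), Zfp395 at 52.9 (13.4 to 20.0), Zfp598 at 86.4 (38.1 to 50.1) and Zfp385b at 106 (52.3 to 66.6). Zfp521 stood at 105 CPM there (5.53 to 15.1) and Zfp384 at 82.7 (49.5 to 58.9), while Zfp260 was low at 50.4 (71.2 to 73.3). Cerebellar markers summed to 4388 CPM in that library against at most 163 CPM in the others, and their part in these values was not tested. In untreated 1, Zfp667 was low at 20.2 CPM (26.3 to 28.2 in the other untreated libraries) and Zfp365 at 105 (155 to 160), and choroid plexus markers summed to 2655 CPM there. In untreated 3, Zfp598 was low at 34.2 CPM (39.4 to 41.3).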

How the results depend on the processing

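The members' median log2 fold change stayed positive under every setting tried, and no called member that the naming rule takes changed sign. The number lower was 9 with upper quartile factors and 8 with DESeq2, where 21.6% and 20.5% of all tested genes were lower. Without ibudilast 3, ibudilast 5 and untreated 1 together, 28 of 176 members were higher and 3 lower, against 15% and 11.6% of all tested genes. With the neocortical score 34 were higher and 2 lower, against 12.9% and 8.92%, and with the hippocampal score 28 were higher, against 13.3%. Of those 34 and 28 members, 23 and 27 were also higher in the main fit. Leaving out 1 library gave 33 to 60 members higher and 3 to 7 lower. Of all tested genes 15.7% to 22% were then higher and 13.7% to 19.4% lower. Replicate numbers were not used to pair the samples in the main test. Deviations from the group means correlated at -0.127 to 0.022 between same-numbered libraries. No untreated library correlated best with the ibudilast library of its own number. With a replicate block 37 members were higher and 2 lower, against 16% and 14.2% of all tested genes. Zfp57, Zfp667, Zfp36l1 and Zfp706 did not pass in that fit.

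Members that did not pass changed sign as follows, and none passed in these fits. Zfp143 had -0.030 with upper quartile factors, -0.0015 with limma-voom, -0.014 with limma-trend, -0.011 with the replicate block, -0.24 without the 3 libraries, -0.093 with the hippocampal score, -0.094 with the span trend removed, and -0.10 to 0.084 with 1 library left out. Zfp36 had -0.034 with limma-voom, -0.066 with limma-trend, -0.034 with the replicate block, -0.24 without the 3 libraries, -0.015 and -0.29 with the neocortical and hippocampal scores, and -0.19 to 0.28 with 1 library left out. Zfp207 had -0.0040 with upper quartile factors and -0.0073 to 0.11 with 1 library left out. Without the 3 libraries Zfp593 had 0.073 and Zfp521 -0.59, and Zfp521 had -0.48 to 1.29 with 1 library left out. With the neocortical score Zfp365 had -0.36 and Zfp260 -0.12. With the hippocampal score Zfp410 had -0.0068 and Zfp91 -0.010. With the span trend removed Zfp593 had 0.21, Zfp385b -0.20, Zfp148 -0.044 and Zfp91 -0.036. The cause was not tested.

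Within the 3 against 3 libraries with low animal tags and the 2 against 2 with high ones, the median over the 176 members was 0.27 and 0.14. With that range as a covariate, chosen after seeing the data, 55 were higher and 5 lower, against 20.1% and 18.1% of all tested genes. With 5 libraries per group, small changes near the threshold were decided by single libraries.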
